A study of Mus musculus with 14 samples.

Results

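The 41 genes described here serve protein folding in the endoplasmic reticulum (ER), the removal of proteins that fail to fold there, and the stress response that adjusts both. They were taken from a given list, and all 41 had a probe set among the 18193 genes measured. They were measured as RMA intensities on a linear scale, and a log2 fold change is a difference of mean log2 intensities. Each gene was read from its probe set with the brightest mean log2 intensity over 14 arrays, so a level is comparable between arrays for 1 gene but not between genes. The list was divided by role into chaperones and their partners (9 genes), glycoprotein folding (3), disulfide oxidoreductases (9), prolyl isomerases (3), degradation (10), the sensors and factors IRE1, ATF6 and CREB3L2 (3), and the arm of the kinase PERK (4: Eif2ak3, Atf4, Ddit3 and Ppp1r15a).

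The RNA, amplified before labelling, was that of B cells isolated by flow cytometry; the donors were male C57Bl/Ka mice and the organ was the spleen. Naive B cells (3 arrays) came from unimmunized mice aged 4 to 8 weeks and were gated as B220+, CD23+, IgM-low, IgD+ and Ig-lambda+. The other subsets bound the hapten NP and came from mice given alum-precipitated NP-CGG (100 µg on every array but plasma replicate 1, whose label states no dose) into the peritoneum. Plasma cells (4 arrays) were taken at day 7 from mice aged 5 to 9 weeks as syndecan-1+, B220-low, PNA-negative cells with low IgM and with Ig-lambda. Germinal center cells (3 arrays) were taken at day 14 from mice aged 6 to 10 weeks as B220+, IgM-low or negative, Ig-lambda-low, CD38-low and PNA+ cells. Memory cells (4 arrays) were taken after 10 to 12 weeks from mice aged 14 to 18 weeks as B220+, IgM-negative, IgD-negative, Ig-lambda+, CD38-high and PNA-negative cells. Every sort excluded T cells (CD3, CD4, CD8), CD5+ cells, erythroid cells (Ter119) and myeloid cells (CD11b, Gr-1). Subset, time after immunization and age cannot be told apart, and in such bulk samples neither can the share of expressing cells and the RNA per cell. Nothing in the labels says that the replicates of a subset came from separate mice, so each p-value covers the spread among the samples at hand, and that spread may be technical.

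Newly made secretory and membrane proteins enter the ER unfolded. Chaperones of the Hsp70 and Hsp90 families, the lectins calnexin and calreticulin, disulfide isomerases and prolyl isomerases fold and assemble them, and what fails is marked by mannose trimming, moved back to the cytosol and ubiquitinated. The unfolded protein response watches this balance through the membrane sensors IRE1, which splices Xbp1 mRNA, ATF6, which is cleaved to a transcription factor, and PERK, which phosphorylates eIF2alpha, slows translation and favours ATF4 and its target CHOP (Ddit3). Plasma cells, which secrete antibody in large amounts, depend on XBP1 for this machinery.

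Between 52.7% and 66.9% of genes lay above the array background, taken as the highest signal on that array among 27 probe sets for bacterial genes to which no RNA was added (intensities from 11.0 to 16.1). Of the 41 members, 39 lay above it on every naive array, 38 on every germinal center array, 41 on every plasma array and 38 on every memory array. The exceptions were Pdia5 (above it on 1 of 3 naive and 3 of 4 memory arrays), Edem2 (1 of 3 naive, 1 of 3 germinal center and 1 of 4 memory arrays), Fkbp11 (0 of 3 germinal center and 3 of 4 memory arrays) and Creb3l2 (0 of 3 germinal center arrays). The 6 plasma cell markers examined were all above background on every plasma array, where their summed intensity was 26631 to 36390, against 2687 to 5368 on the other arrays. Germinal center markers summed to 10566 to 14322 on germinal center, 5623 to 6682 on plasma, 1282 to 1797 on naive and 685 to 1020 on memory arrays. Among them Bcl6 and Rgs13 were above background on no plasma array. Mki67, a gene of dividing cells, read 5467 to 6522 on plasma and 5180 to 8589 on germinal center arrays. It read 197 to 282 on memory and 9.21 to 32.9 on naive arrays. Most of the plasma sum was thus Mki67. Sdc1, the gene of the gating marker syndecan-1, read 1965 to 3435 on plasma, 103 to 190.0 on naive, 7.30 to 12.3 on germinal center and 6.37 to 49.9 on memory arrays. T cell markers summed to 91.3 to 97.7 on plasma and 68.4 to 87.5 on the other arrays, with Cd3g above background on none. Cd3d was above background on some or all plasma arrays and on no other array. Of the 5 T cell markers, 3 were above background on every plasma, germinal center and memory array, and 2 on every naive array. Plasmacytoid dendritic cell markers summed to 98.2 to 114 on plasma and 40.9 to 69.2 on the other arrays. Myeloid markers summed to 105 to 245 on plasma and 97.3 to 139 on the other arrays, with Itgam, S100a8 and S100a9 above background on none. Of the 7 myeloid markers, the other 4 were above background on every plasma array, against 2 on every array of each other subset. Cd68 was among these 4 and was above background on no naive or memory array. The part of such cells in the results was not tested. Beta-actin probes at the 3' end read above those in the middle of the transcript, and this ratio, which rises as RNA is degraded or copied short, was 6.11 to 17.55 on germinal center arrays, 4.39 to 5.30 on naive, 5.47 to 6.91 on plasma and 4.15 to 5.33 on memory arrays. The same ratio for Gapdh was 8.23 to 10.87 on germinal center and 9.44 to 11.99 on naive arrays. It was 5.45 to 8.41 on plasma and 11.03 to 13.02 on memory arrays. By Gapdh the germinal center arrays thus overlapped the naive arrays and lay below every memory array, unlike by actin. Precision is limited by the few arrays in each subset.

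**Figure D1:**
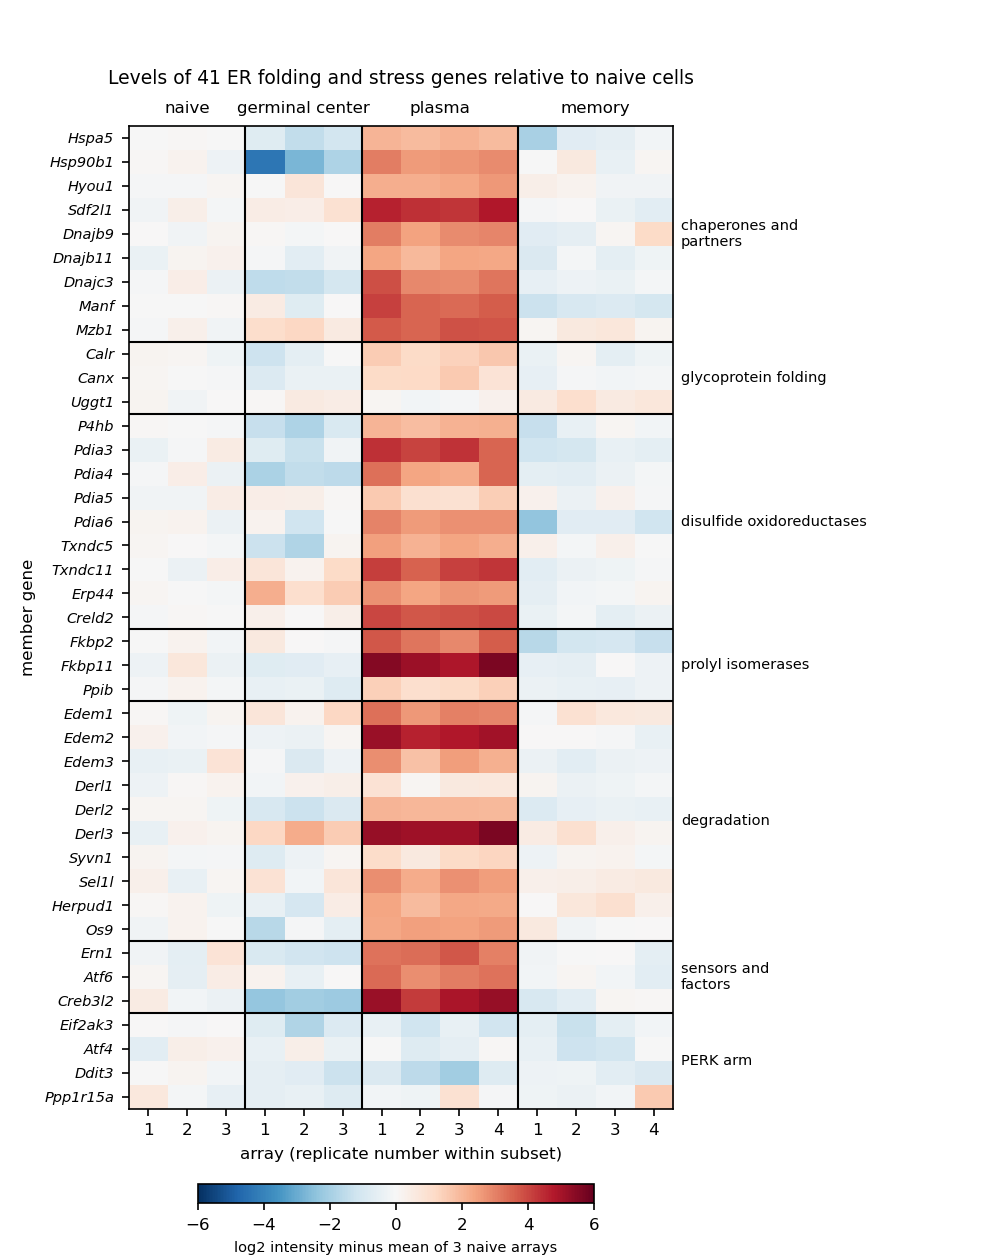
Levels of the 41 members on each of the 14 arrays. Each row is 1 gene, each column 1 array, and the colour is the log2 intensity minus that gene's mean over the 3 naive arrays; black lines part the subsets and the roles. The 4 plasma columns are red in every role except the PERK arm and Uggt1, and Derl1 is pale.

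Plasma cells had more RNA of nearly all of the folding and degradation machinery than naive cells, while the PERK arm did not share in it. With limma and a threshold of 0.05 on the adjusted p, 36 of 41 members were higher and 1 was lower, where 14.2% of all 18193 genes were higher and 16.1% lower (30.3% in all). By role, 9 of 9 chaperones and partners, 2 of 3 glycoprotein folding genes, 9 of 9 oxidoreductases, 3 of 3 prolyl isomerases, 10 of 10 degradation genes and 3 of 3 of the sensors and factors rose. Of the 4 PERK arm genes 3 did not pass the test and Ddit3 fell. The median log2 fold change was 2.80 for chaperones, 1.17 for glycoprotein folding, 2.76 for oxidoreductases, 3.35 for prolyl isomerases, 2.37 for degradation and 3.34 for the sensors and factors. It was -0.56 for the PERK arm and 0.06 over all genes tested. For 35 members every plasma array was brighter than every naive array, and for 2, Eif2ak3 and Ddit3, every plasma array was dimmer, where 20.3% and 18.8% of all genes were separated in these ways. Against these 37 calls, 36 to 38 members were called with any 1 array left out and in the other alternative fits, and 34 where genes with a mean log2 intensity under 6 were left out, which removes 4 dim members.

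The members that moved together were compared at their promoters, since ER stress elements are described for several of them. Windows from 250 bases before to 50 bases after the gene start were taken from RefSeq (GRCm38.p6) and 36 of the 41 members matched; Hyou1, Manf, Mzb1, Derl1 and Atf6 had none. The ER stress element (ERSE), which ATF6 and XBP1 bind with NF-Y, was searched as CCAAT and CCACG with any 9 bases between them, the shorter ERSE-II as ATTGG and CCACG with any 1 base between them, the unfolded protein response element (UPRE) as TGACGTGG, and the element of C/EBP and ATF4 as TGATGNAA, all on both strands. ERSE and ERSE-II both end in CCACG. ERSE was found in 9 members and in 0.119% of all 32851 windows of this length. ERSE-II was found in 2 members (0.0365% of windows), UPRE in 2 (0.676%) and the C/EBP and ATF4 element in 2, Txndc5 and Herpud1 (3.97%). Since 6 members had several starts, the 36 members had 44 windows. Of these windows 9 held ERSE, and 2 held each of the other elements. None of the 4 PERK arm windows held any of these 4 motifs, nor did those of Ern1 and Creb3l2. Only these exact letters were searched, so variants of an element were not counted and carry no capitals. An example is ccaatcagcggcctccaac in Hspa5, which departs from ERSE in its CCACG end. Such a match is a description of letters in this window. The 9 members with an ERSE are shown first, the capitals marking its fixed letters on either strand. Hspa5 and Creld2 are given as the 250 bases upstream of the start, and the others with 10 bases on each side of the element; for Hsp90b1 the stretch spans 2 elements.
Hspa5 (chr2:34771840-34772089, plus strand): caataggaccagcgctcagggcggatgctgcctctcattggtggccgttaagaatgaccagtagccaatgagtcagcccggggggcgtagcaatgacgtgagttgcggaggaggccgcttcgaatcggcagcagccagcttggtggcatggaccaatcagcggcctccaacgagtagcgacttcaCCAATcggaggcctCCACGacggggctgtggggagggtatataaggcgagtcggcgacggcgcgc
Creld2 (chr15:88819396-88819645, plus strand): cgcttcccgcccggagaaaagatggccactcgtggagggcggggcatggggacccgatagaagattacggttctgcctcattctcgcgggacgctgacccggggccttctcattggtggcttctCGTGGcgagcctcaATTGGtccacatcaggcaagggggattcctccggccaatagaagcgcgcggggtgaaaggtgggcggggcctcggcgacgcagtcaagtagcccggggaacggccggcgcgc
Hsp90b1 (chr10:86705523-86705666, minus strand): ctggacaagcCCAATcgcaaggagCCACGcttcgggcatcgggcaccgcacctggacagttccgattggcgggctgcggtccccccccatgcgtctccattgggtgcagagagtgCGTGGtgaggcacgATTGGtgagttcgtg
Dnajc3 (chr14:118937817-118937855, plus strand): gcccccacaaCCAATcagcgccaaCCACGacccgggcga
Calr (chr8:84847065-84847103, minus strand): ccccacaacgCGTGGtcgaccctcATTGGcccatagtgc
Canx (chr11:50325790-50325828, minus strand): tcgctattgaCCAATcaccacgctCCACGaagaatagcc
Pdia6 (chr12:17266481-17266519, plus strand): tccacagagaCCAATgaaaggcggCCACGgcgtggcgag
Derl3 (chr10:75893232-75893270, plus strand): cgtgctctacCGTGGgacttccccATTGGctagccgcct
Syvn1 (chr19:6046522-6046560, plus strand): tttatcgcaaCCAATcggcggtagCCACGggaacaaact

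ERSE-II lay 42 to 52 bases upstream of the start of Herpud1 and 7 to 17 bases downstream of that of Dnajb11. UPRE lay 131 to 138 bases upstream of a start of Txndc5 and 95 to 102 bases upstream of a start of Txndc11. The windows of the other starts of Txndc5 and Txndc11 held no UPRE. Capitals mark these elements, with 250 bases upstream for Herpud1, 5 bases on each side for Dnajb11 and 10 for the others. The promoter of Ddit3, the member that fell, is printed for comparison with no capitals. It holds the stretch cgtgccgctttctgattgg, which has the spacing of an ERSE but departs from its letters in the CCACG end. The search for exact letters did not count it, so a lack of capitals does not mean a lack of such an element.
Herpud1 (chr8:94386179-94386428, plus strand): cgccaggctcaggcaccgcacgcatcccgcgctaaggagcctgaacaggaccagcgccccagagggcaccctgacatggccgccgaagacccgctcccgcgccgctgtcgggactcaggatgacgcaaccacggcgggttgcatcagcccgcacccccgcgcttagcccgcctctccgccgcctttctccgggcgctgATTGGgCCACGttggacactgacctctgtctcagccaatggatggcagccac
Dnajb11 (chr16:22857847-22857867, plus strand): cggcgATTGGcCCACGcctgg
Txndc5 (chr13:38528035-38528062, minus strand): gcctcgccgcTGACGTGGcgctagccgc
Txndc11 (chr16:11134617-11134644, minus strand): gaagtgtggcTGACGTGGagagtccggg
Ddit3 (chr10:127290543-127290792, plus strand): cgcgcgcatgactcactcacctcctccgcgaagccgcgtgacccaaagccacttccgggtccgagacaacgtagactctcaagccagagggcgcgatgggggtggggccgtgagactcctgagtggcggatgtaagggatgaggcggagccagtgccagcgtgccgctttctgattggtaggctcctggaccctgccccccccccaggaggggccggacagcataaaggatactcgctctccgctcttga

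All 11 members with an ERSE or ERSE-II rose in plasma against naive cells, with a median log2 fold change of 2.25 (1.03 to 5.27). Of the 21 members with a window but neither element, outside the PERK arm, 20 rose, with a median of 2.80 (0.04 to 5.29). The rise was thus seen in members with and without these exact letters in the window. Variants of the elements and positions outside the window were not searched. Whether the rise depends on such elements was not tested.

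Among the chaperones, Hspa5 (BiP), the main Hsp70 protein of the ER, read 3036, 3297 and 3033 on the naive and 12799.5, 11806, 13461 and 11665 on the plasma arrays, a log2 fold change of 1.99 ± 0.31 (standard error; n = 4 and 3; adjusted p = 0.000168). The Hsp90 chaperone Hsp90b1 (GRP94) rose by 2.78 ± 0.42. Sdf2l1, a partner of the BiP cofactor encoded by Dnajb11, had the largest rise of this role, from 16.9, 24.8 and 17.8 on naive to 474, 406, 379.8 and 538 on plasma arrays (4.51 ± 0.20, 22.8-fold). Every plasma array of these genes stood above every naive array, and the same held for all 9 chaperones and partners. Mzb1, a B cell protein that assists antibody assembly, read 512, 669 and 474 on naive and 7016, 6045, 7729 and 7482 on plasma arrays (3.69 ± 0.20, 12.9-fold). Manf, a small ER protein that binds BiP, read 203, 202 and 215 and then 3522, 2312, 2209 and 2599 (3.66 ± 0.24, 12.7-fold). The J-domain cofactors of BiP rose too, Dnajc3 by 3.20, Dnajb9 by 2.80 and Dnajb11 by 2.25, as did Hyou1, an Hsp70-like exchange factor of BiP, by 2.32.

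The lectin chaperones Calr and Canx, which hold glycoproteins while they fold, rose by 1.42 ± 0.25 and 1.17 ± 0.17. Uggt1, the enzyme that puts the glucose back on unfolded glycoproteins and so returns them to these lectins, read 431, 327 and 390.0 on naive and 414, 341, 363 and 456 on plasma arrays (0.04 ± 0.17, adjusted p = 0.89). The arrays overlapped, and no difference passed on this probe set. Its other probe set above background on all 14 arrays gave 1.32 ± 0.18 (adjusted p = 9.41e-05), so the reading of Uggt1 depends on the probe set.

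All 9 oxidoreductases, which make and rearrange disulfide bonds, rose. Pdia3 (ERp57), the partner of the lectin chaperones, went from 29.0, 35.6 and 53.2 on naive to 785, 623, 759 and 427 on plasma arrays, or 16.6-fold (4.05 ± 0.30). Txndc11, a thioredoxin-domain protein of the ER membrane, read 44.0, 35.2 and 58.8 and 792, 531, 776 and 892 in the same order (4.03 ± 0.24). Creld2, an ER protein induced by stress, read 675, 744 and 700.2 on naive and 11300.5, 9407, 10032 and 11104 on plasma arrays. Its replicates were close to each other, and the log2 fold change of 3.89 ± 0.13 carried the smallest standard error of the 41 members. None of the arrays overlapped between the subsets for any oxidoreductase. Pdia4, Pdia6, Erp44, Txndc5 and P4hb rose by 2.04 to 2.84, and Pdia5, near background on naive arrays, by 1.23 ± 0.21.

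Prolyl isomerases, which turn proline bonds during folding, also rose in all 3 cases. Fkbp11 had, on its brightest probe set, a rise like that of Derl3 and above those of the other members, from 14.8, 29.2 and 14.4 on naive to 844, 651, 535 and 907 on plasma arrays (5.29 ± 0.25, 39.1-fold; adjusted p = 1.09e-09). With the mean over its probe sets the rise was 1.92. Fkbp2 read 92.0, 111 and 83.4 on naive and 1245, 869, 691 and 1173 on plasma arrays, a rise of 3.35 ± 0.23. Both genes were separated without overlap, and so was Ppib (cyclophilin B), which rose by 1.25 ± 0.15.

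The degradation genes rose in 10 of 10 cases, over a wide range. Derl3, a derlin of the channel that moves misfolded proteins to the cytosol, read 18.8, 31.1 and 29.1 on naive and 975, 869, 864 and 1303 on plasma arrays (5.27 ± 0.26, 38.5-fold). Edem2, which starts the mannose trimming that marks glycoproteins for disposal, read 15.2, 11.3 and 12.2 on naive arrays, of which 1 was above background, and 465, 316, 359.9 and 419.9 on plasma arrays (4.92 ± 0.18). Every plasma array lay far above the naive ones for both genes. Edem1, of the same family, went from 361, 289 and 391 to 3373, 2086, 2772 and 2625 (2.96 ± 0.26). Sel1l, the scaffold of the ubiquitin ligase HRD1, went from 477, 289.5 and 429 to 2682, 1797, 2568 and 2235 (2.56 ± 0.24). The ligase itself, Syvn1, rose less, by 1.03 ± 0.22, and the lectin Os9, the membrane protein Herpud1, Edem3 and Derl2 by 2.00 to 2.45.

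Derl1 had the smallest rise of the called members and the only one whose arrays overlapped, with 2162, 2792 and 3031 on naive and 4854, 2890.1, 3893 and 4055 on plasma arrays (0.55 ± 0.19, adjusted p = 0.0455). The call did not survive leaving out naive replicate 1 or 2 or plasma replicate 1, 3 or 4, with adjusted p from 0.0706 to 0.206 and log2 fold changes from 0.41 to 0.59. It was also lost with arrays centred on their median, a floor of 16, the replicate number as a block and the actin ratio as a covariate. With the 2 subsets fitted alone it was lost too. The call of Derl1 thus held in 7 of 17 alternative settings. Its 3 other probe sets above background on every array rose by 1.31 ± 0.18, 2.32 ± 0.18 and 4.40 ± 0.22.

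**Figure D2:**
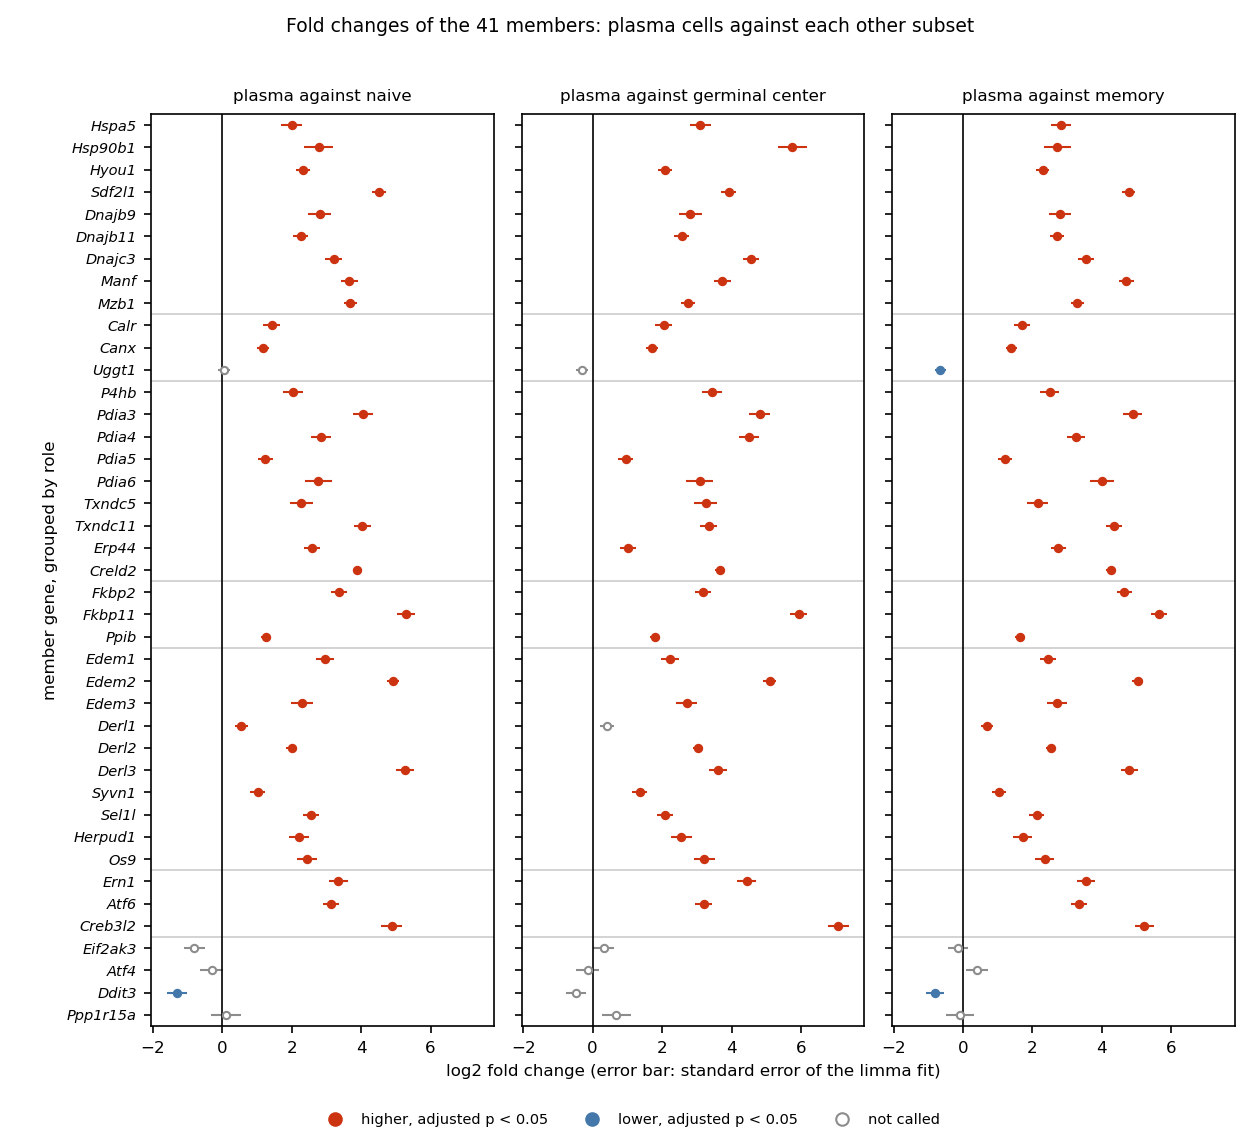
Log2 fold changes of the 41 members in plasma cells (4 arrays) against naive (3), germinal center (3) and memory cells (4). Points are fold changes with their standard errors, filled where the adjusted p was under 0.05, and grey lines part the roles. Points lie well to the right of 0 in each panel for most members, and near or below it for Uggt1 and the PERK arm, whose 4 genes lie between -1.31 and 0.68; Uggt1 is at 0.04 against naive and below 0 against germinal center and memory cells.

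Of the sensors, Ern1, which encodes IRE1, read 96.9, 75.3 and 201 on the naive and 1073, 1168, 1484 and 934 on the plasma arrays (3.34 ± 0.28, 10.1-fold; adjusted p = 3.35e-07), and the mean over its probe sets gave 1.39. Atf6 read 105, 68.4 and 131 on naive and 1044, 671, 829 and 928 on plasma arrays (3.13 ± 0.24, 8.74-fold). Creb3l2, a membrane-bound factor that is cleaved as ATF6 is, rose the most of these 3, from 84.6, 53.9 and 46.2 to 2153, 1096, 1751 and 2245 (4.87 ± 0.30, 29.3-fold). The subsets did not overlap for any of the 3 genes. Ern1 read 60.8, 51.1 and 47.7 on germinal center and 99.2, 110.2, 116 and 75.7 on memory arrays. Atf6 read 112, 71.6 and 101 on germinal center and 86.5, 107, 86.6 and 64.2 on memory arrays. Creb3l2 read 11.8, 14.0 and 13.1 on germinal center arrays, all at background, and 30.6, 38.9, 65.2 and 61.6 on memory arrays. The 4 plasma arrays were the brightest of all 14 for each of these genes. Xbp1, the factor that IRE1 activates, is no member and went from 2031, 2439 and 1989.6 on naive to 14084, 10557, 13394 and 13477 on plasma arrays (2.58 ± 0.27), against 1152, 2489.6 and 3527 on germinal center and 2389, 2211, 1862 and 2279 on memory arrays. The arrays measured its total RNA and not its splicing.

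No gene of the PERK arm passed as higher in plasma than in naive cells, and none did at an unadjusted p under 0.05 (limma). Eif2ak3, which encodes PERK, read 845, 778 and 848 on naive, 609, 359.9, 609 and 368 on plasma, 497, 232 and 464 on germinal center and 546, 326, 549.8 and 736 on memory arrays. All 11 arrays of the immunized subsets lay below the 3 naive arrays. Against naive cells the plasma difference was -0.81 ± 0.31 and missed the threshold (adjusted p = 0.0615); it passed in 6 of 17 alternative settings, such as without plasma replicate 3, where it was -0.93 (adjusted p = 0.0478). With the mean over its probe sets there was no fall, at 0.04 (adjusted p = 0.878), and the median of the PERK arm was 0.0018. Atf4, the factor that phosphorylated eIF2alpha lets through, read 1067, 2137 and 2011 on naive, 1616, 979, 1152 and 1770.2 on plasma, 1234, 2129 and 1247 on germinal center and 1216, 691, 768 and 1633 on memory arrays. The 4 subsets overlapped, and plasma against naive gave -0.31 ± 0.34 (adjusted p = 0.551). The activity of ATF4 is set largely at translation, which arrays do not measure.

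Ddit3 (CHOP), the factor tied to cell death under lasting stress, read 190.1, 219 and 176 on naive and 108, 66.2, 46.2 and 114 on plasma arrays. Every plasma array was dimmer than every naive array, and the log2 fold change of -1.31 ± 0.29 (2.49-fold lower; adjusted p = 0.00254) was the only fall called among the members. It held under each of 17 alternative settings, at -1.49 to -0.94. Ddit3 read 133, 121 and 80.6 on germinal center and 159, 162, 126 and 106 on memory arrays, between the naive and the plasma means. Ppp1r15a (GADD34), which brings the phosphatase that reverses PERK's mark, read 165, 99.8 and 75.4 on naive, 97.2, 89.1, 202 and 102 on plasma, 74.2, 79.9 and 63.2 on germinal center and 90.4, 83.0, 95.3 and 315 on memory arrays. Single arrays stood high in naive, plasma and memory cells, and plasma against naive gave 0.11 ± 0.43 (adjusted p = 0.888). The standard errors in this arm were 0.29 to 0.43, so a change of the size called for Derl1 could have gone undetected.

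**Figure D3:**
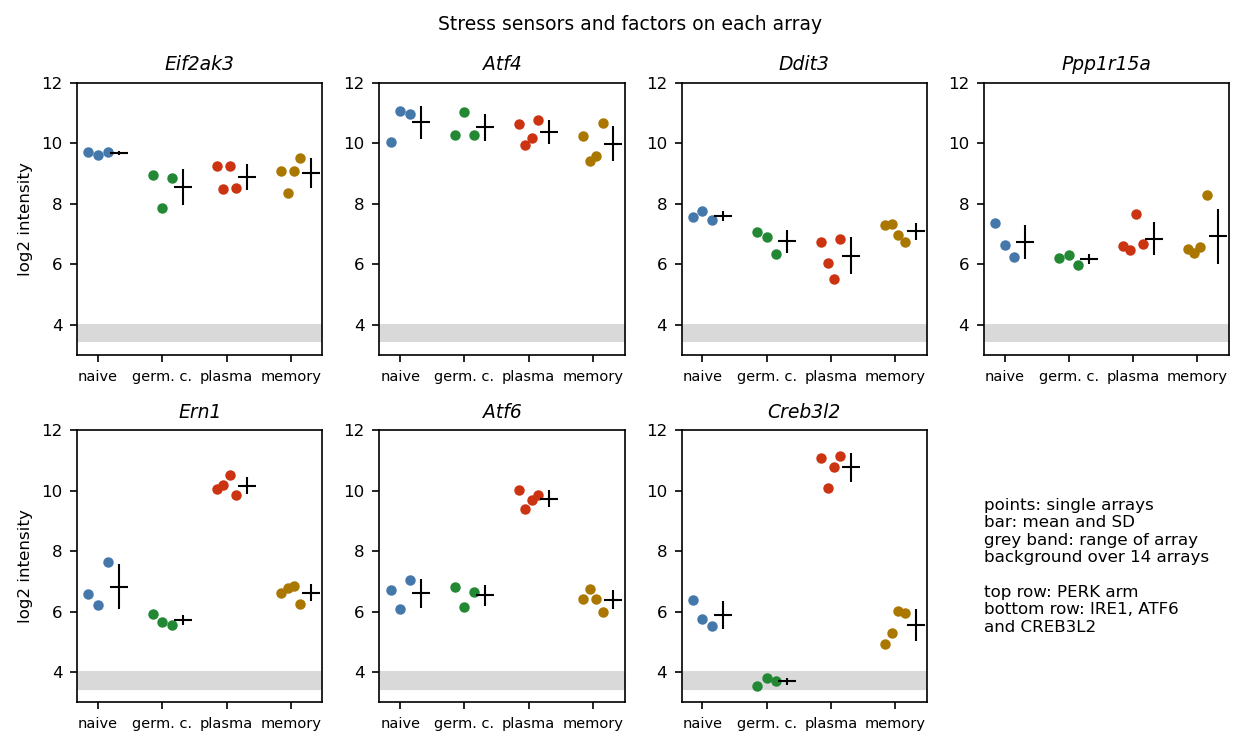
Log2 intensity of the PERK arm genes (top row) and of Ern1, Atf6 and Creb3l2 (bottom row) on each of the 14 arrays. Points are arrays, crosses the mean and SD of a subset, and the grey band is the range of array background. The plasma points stand above all others in the bottom row and among or below the others in the top row.

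Other genes of the pathways, outside the 41 members, were read in the same way. Of 36 measured genes of the XBP1 and ATF6 branches and of degradation, 23 rose and 2 fell in plasma against naive cells, with a median log2 fold change of 1.03, where 14.2% of all genes rose and 16.1% fell. The largest rises were those of the peroxidase Prdx4 (3.77 ± 0.26), the selenoprotein Selenok (2.58 ± 0.24) and the ubiquitin-conjugating enzyme Ube2j1 (2.58 ± 0.20), and the falls were Fkbp7 (-0.91 ± 0.19) and Faf2 (-0.64 ± 0.13). Of 24 measured genes of eIF2alpha phosphorylation and its targets (Eif2s1 was not measured), 8 rose and 5 fell against the same shares of all genes, with a median of 0.28. Those that rose most were Asns (4.53 ± 0.33), which makes asparagine, Chac1 (2.33 ± 0.19), which breaks down glutathione, and the amino acid transporter Slc7a5 (2.24 ± 0.17). Those that fell most were Eif2ak4 (-2.58 ± 0.18), the eIF2alpha kinase GCN2, the stress gene Ddit4 (-1.75 ± 0.36) and the oxidative stress factor Nfe2l2 (-1.48 ± 0.22). Atf3 and Trib3, which act with CHOP, gave -0.02 ± 0.15 (adjusted p = 0.948) and -0.46 ± 0.21 (adjusted p = 0.126); both were named after their values were seen. Against memory cells 26 of the first list were higher and 1 lower in plasma cells, and 7 and 6 of the second, where 17.2% of all genes were higher and 16% lower. In germinal center against naive cells 2 of the first list were higher and 4 lower, and 4 and 4 of the second, where 8.37% of all genes were higher and 11.1% lower.

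Against germinal center cells, plasma cells had 35 of 41 members higher and 0 lower (limma; 0 also at an unadjusted p under 0.05), where 11.2% of genes rose and 12.6% fell (23.8% in all). The members not called were Uggt1, Derl1 and the 4 PERK arm genes, whose differences ran from -0.48 for Ddit3 to 0.68 for Ppp1r15a. The adjusted p of these 4 ran from 0.279 to 0.821. Creb3l2 was at least 123-fold and Fkbp11 at least 50.8-fold higher, the bound being set by background, since neither was above it on any germinal center array. Hsp90b1 was 53.8-fold higher (5.75 ± 0.42), Edem2 34.1-fold (5.09 ± 0.18) and Pdia3 27.9-fold (4.80 ± 0.30). Medians by role were 3.10 for chaperones, 3.34 for oxidoreductases, 2.63 for degradation, 4.44 for the sensors and factors and 0.09 for the PERK arm, against -0.02 over all genes. With the actin ratio as a covariate 34 members were called, since Erp44, called at 1.01 ± 0.22 without it, was at 0.74 with it and missed the threshold (adjusted p = 0.0794).

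Against memory cells, plasma cells had 36 members higher and 2 lower, where 17.2% of genes rose and 16% fell (33.2% in all). Fkbp11 (5.63 ± 0.23), Creb3l2 (5.22 ± 0.28) and Edem2 (5.03 ± 0.17) differed most. Uggt1 was lower on its brightest probe set, at -0.65 ± 0.16 (adjusted p = 0.0042), with 414, 341, 363 and 456 on plasma and 554, 773, 549 and 609.6 on memory arrays. These arrays did not overlap, but the other probe set was higher by 1.22 ± 0.17 (adjusted p = 7.25e-05). Ddit3 was lower, at -0.80 ± 0.26 (adjusted p = 0.0301) with overlapping arrays. That call was lost without plasma replicate 2 or 3 or memory replicate 1 or 2, with adjusted p from 0.0761 to 0.0918. It was also lost under quantile normalization, with arrays centred on bright genes and with a floor of 16. The call of Ddit3 thus held in 11 of 18 alternative settings. Eif2ak3 (-0.14), Atf4 (0.40) and Ppp1r15a (-0.08) did not pass. The comparisons of plasma cells share their 4 arrays, so they are not independent of each other.

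Germinal center cells had 3 members higher and 10 lower than naive cells, where 8.37% of genes rose and 11.1% fell (19.5% in all), and the median over all members was -0.33 (0.06 over all genes). Hsp90b1 fell most, from 1648, 1799 and 1271 on naive to 78.1, 235 and 429 on germinal center arrays (-2.97 ± 0.45, 7.82-fold lower; adjusted p = 0.000237). Creb3l2 was at least 4.2-fold lower, with all 3 germinal center arrays at background. Pdia4 read 174, 236 and 142 on naive and 47.6, 64.4 and 60.2 on germinal center arrays (-1.66 ± 0.31), and P4hb, the founding disulfide isomerase, 1349, 1276 and 1239 and 486, 362 and 673 (-1.39 ± 0.31). The germinal center arrays lay below the naive arrays for Hsp90b1, Creb3l2, Pdia4 and P4hb alike. Dnajc3, Eif2ak3, Hspa5, Ern1, Derl2 and Ppib fell too, with log2 fold changes of -1.35, -1.13, -1.11, -1.10, -1.04 and -0.54.

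The members that rose in germinal center cells were Derl3, Erp44 and Mzb1. Derl3 read 18.8, 31.1 and 29.1 on naive and 60.4, 122 and 73.0 on germinal center arrays (1.66 ± 0.28). Erp44, which holds unassembled antibody subunits back in the early secretory path, read 735, 669 and 627 and 3038, 1379 and 1924 (1.57 ± 0.24, 2.97-fold; adjusted p = 0.000258), and Mzb1 rose by 0.94 ± 0.21. The germinal center arrays lay above the naive range for Derl3, Erp44 and Mzb1.

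These germinal center results changed when the actin ratio given above entered the fit. Every germinal center array had a higher actin ratio (6.11 or more) than every naive or memory array (5.33 or less), which did not hold for the Gapdh ratio. The covariate therefore cannot be cleanly parted from the subset, and a loss of calls with it does not show a cause. With that ratio as a covariate 1540 genes were called in place of 3542, and 3 members in place of 13, namely Erp44 (1.98) and Edem1 (1.52) higher and Creb3l2 (-2.18) lower, and Hsp90b1 missed at -2.28 (adjusted p = 0.0532). Other scalings of the arrays gave 3 higher and 15 lower (arrays centred on their median), 6 and 10 (quantile normalization) or 7 and 9 (arrays centred on bright genes). The call of Hspa5 was lost without any 1 of the naive arrays or without germinal center replicate 2 or 3 (adjusted p from 0.0541 to 0.112), and that of Eif2ak3 without any 1 of the naive arrays or germinal center replicate 2 (0.0507 to 0.113). Ern1 was lost without naive replicate 3 (-0.69, adjusted p = 0.0574), and Ppib without naive replicate 2 (0.0952) or germinal center replicate 3 (0.087). Ern1 was also lost under quantile normalization (adjusted p = 0.068) and with the 2 subsets fitted alone (0.0853), and Ppib with the 2 subsets alone (0.107) and with arrays centred on bright genes (0.226). A floor of 16 ended the calls of Hspa5 (0.0723) and Eif2ak3 (0.0646). The mean over probe sets ended those of Hspa5 (-0.34), Pdia4 (-0.69), Derl2 (-0.62), Ern1 (-0.11) and Eif2ak3 (-0.12). Without germinal center replicate 2, the array with the highest actin ratio, 15 members were called, 6 higher and 9 lower.

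Few members passed the test between memory and naive cells. Of 41 members, 1 was higher and 3 were lower, where 2.31% of genes rose and 3.26% fell (5.57% in all), and the median over the members was -0.27 (-0.03 over all genes). For 11 members every memory array was dimmer than every naive array and for 2 every one was brighter, where 11.3% and 6.15% of all genes were separated in these ways. Fkbp2 read 92.0, 111 and 83.4 on naive and 30.2, 43.9, 47.3 and 36.3 on memory arrays (-1.29 ± 0.23, 2.44-fold lower; adjusted p = 0.0043), with no overlap and a call under each of 17 alternative settings at the 0.05 threshold. Manf read 203, 202 and 215 and 84.1, 106, 116 and 98.5 (-1.04 ± 0.24, adjusted p = 0.0204), also without overlap. Uggt1 read 431, 327 and 390.0 on naive and 554, 773, 549 and 609.6 on memory arrays, a rise of 0.70 ± 0.17 (adjusted p = 0.0262). Derl2 read 248, 244 and 191 and 127, 163, 172 and 165, a log2 fold change of -0.54 ± 0.15 at the edge of the threshold (adjusted p = 0.0485).

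The calls of Manf, Uggt1 and Derl2 did not hold with each array left out in turn. Manf was lost without any 1 of the naive arrays or memory replicate 1 (adjusted p from 0.0524 to 0.0756), Uggt1 without naive replicate 2 or 3 or memory replicate 2 or 4 (0.051 to 0.126), and Derl2 without naive replicate 1 or 2 or any 1 of the memory arrays (0.0537 to 0.169). A floor of 16 also ended the call of Manf, which held in 12 of 17 alternative settings. The call of Uggt1 was lost too with the mean over probe sets, with a trended and robust variance, and with the replicate number as a block. That of Derl2 held in only 2 of 17 alternative settings and was lost under all other scalings of the arrays. The second probe set of Uggt1 gave 0.09 ± 0.18 (adjusted p = 0.888). Pdia6 was dimmer on every memory than on every naive array, with 184, 593, 589 and 410.4 against 1072, 1084 and 736, but its spread between memory arrays was wide and it did not pass (-1.24 ± 0.39, adjusted p = 0.0874). No PERK arm gene passed, Eif2ak3 at -0.67 ± 0.31, Atf4 at -0.71 ± 0.34, Ddit3 at -0.51 ± 0.29 and Ppp1r15a at 0.19 ± 0.43.

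**Figure D4:**
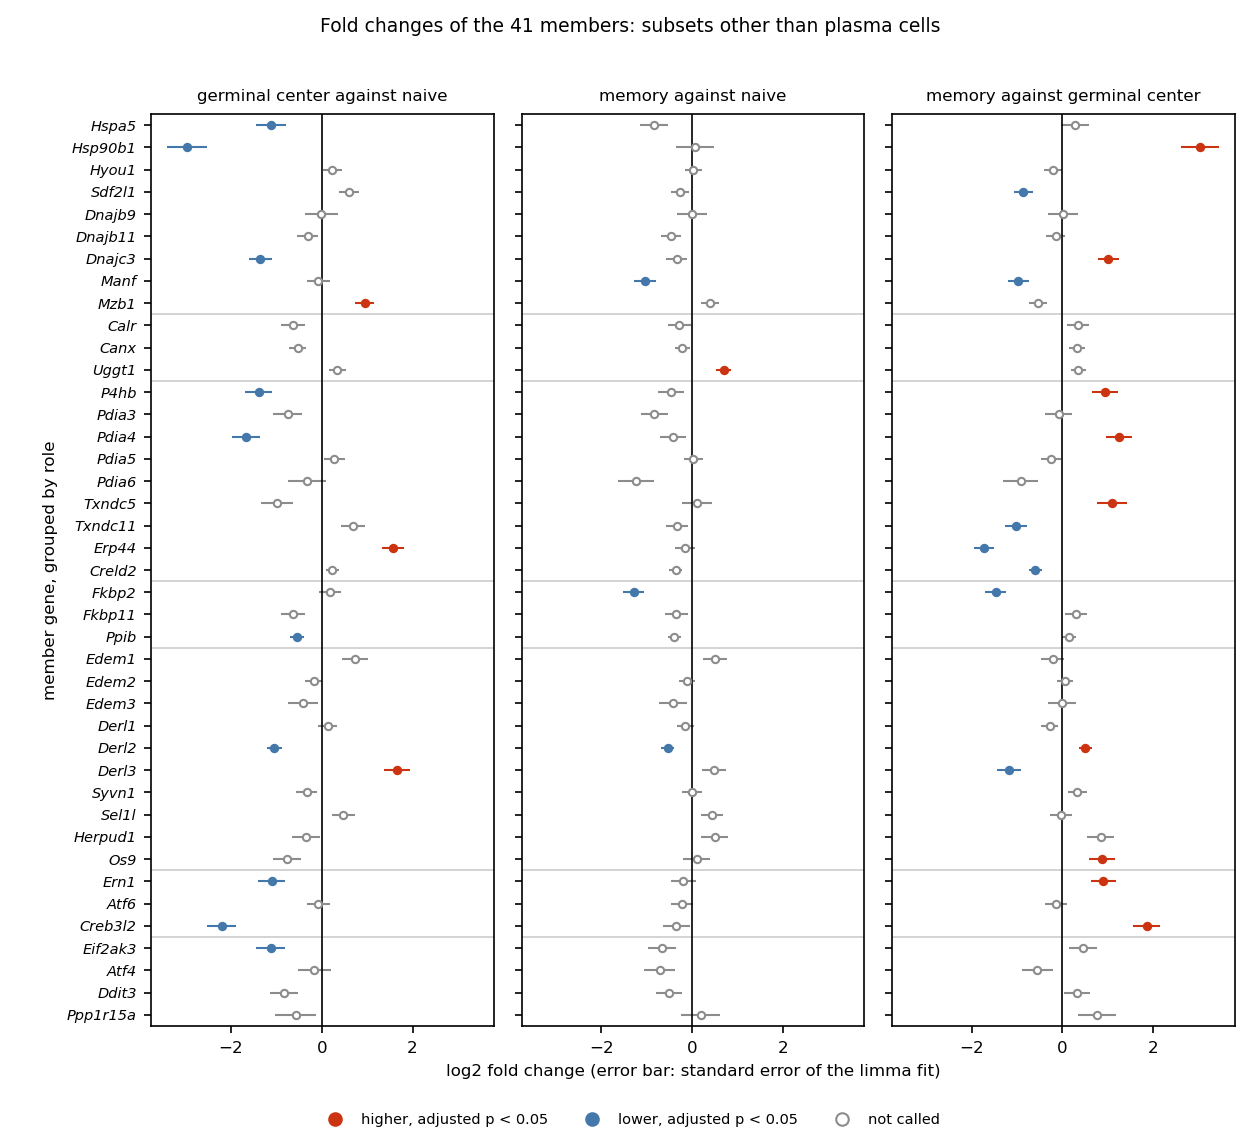
Log2 fold changes of the 41 members between germinal center (3 arrays), memory (4) and naive cells (3). Points are fold changes with their standard errors, filled where the adjusted p was under 0.05. Hsp90b1 stands out on both sides of the germinal center, at -2.97 against naive cells and at 3.04 in memory against germinal center cells, and few points are filled in memory against naive cells.

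Memory against germinal center cells gave 9 members higher and 7 lower, where 11% of genes rose and 11.5% fell (22.4% in all). Hsp90b1 was higher in memory cells by 3.04 ± 0.42, with 1554, 2331, 1150.4 and 1704 on its 4 arrays, and Creb3l2 at least 3.3-fold higher. Pdia4 (1.25), Txndc5 (1.10), Dnajc3 (1.01), P4hb (0.93), Ern1 (0.90), Os9 (0.87) and Derl2 (0.50) were higher too. Those lower in memory cells were Erp44 (-1.73 ± 0.22), Fkbp2 (-1.47 ± 0.23), Derl3 (-1.18), Txndc11 (-1.01), Manf (-0.97), Sdf2l1 (-0.86) and Creld2 (-0.59). The 7 lower members kept their calls with each array left out in turn, and so did Hsp90b1, Creb3l2, Pdia4 and Dnajc3. Pdia4 and Dnajc3 lost theirs with the mean over probe sets (0.46 and 0.02) and once the actin ratio entered the fit (1.20 and 0.51), and Derl3 with the latter (-0.68). The other 5 higher members lost theirs without 1 array or another, with adjusted p up to 0.139 for Txndc5 and 0.134 for P4hb without germinal center replicate 2, 0.0809 for Ern1 without germinal center replicate 3, 0.214 for Os9 without germinal center replicate 1, and 0.114 for Derl2 without germinal center replicate 2. With the actin ratio as a covariate 2 members were called higher and 7 lower, Pdia6 among the latter.

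Further probe sets gave a view of the same genes that the rule did not use. Of the 41 members 30 had more than 1 probe set, and for 20 at least 1 further probe set was above background on all 14 arrays. In plasma against naive cells none of these 20 genes had probe sets called in opposite directions, though for 13 they differed by more than 1 on the log2 scale. The mean over all probe sets of a gene, those at background included, gave 2.59 for Edem2, 2.00 for Txndc11, 1.63 for Dnajc3, 2.68 for Pdia3, 1.63 for Pdia4, 1.44 for Os9, 1.44 for Hyou1, 1.90 for Erp44, 2.50 for Atf6 and 0.78 for Derl2, all below the brightest probe set and all called. It gave more for Edem1 (4.22), Txndc5 (4.28), Derl1 (2.14) and Canx (1.86). For Txndc5 the second probe set rose by 6.28 ± 0.18 against 2.27 ± 0.33 for the brightest. The fall of Hspa5 in germinal center cells was shared by 1 further probe set (-1.28 ± 0.31) and opposed by another (1.38 ± 0.28, adjusted p = 0.00366), of a design in which some probes may match other transcripts. Txndc5 in germinal center against naive cells gave -0.98 ± 0.36 on the brightest and 1.61 ± 0.19 on the second probe set. A second probe set of Derl2, which gave -0.43 ± 0.36 (adjusted p = 0.432) in plasma against naive cells, did not share the rise of the brightest. In the PERK arm only Atf4 had such a probe set, at 0.16 ± 0.19 against naive (adjusted p = 0.622) and 0.83 ± 0.19 against germinal center cells (adjusted p = 0.00709).

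**Figure D5:**
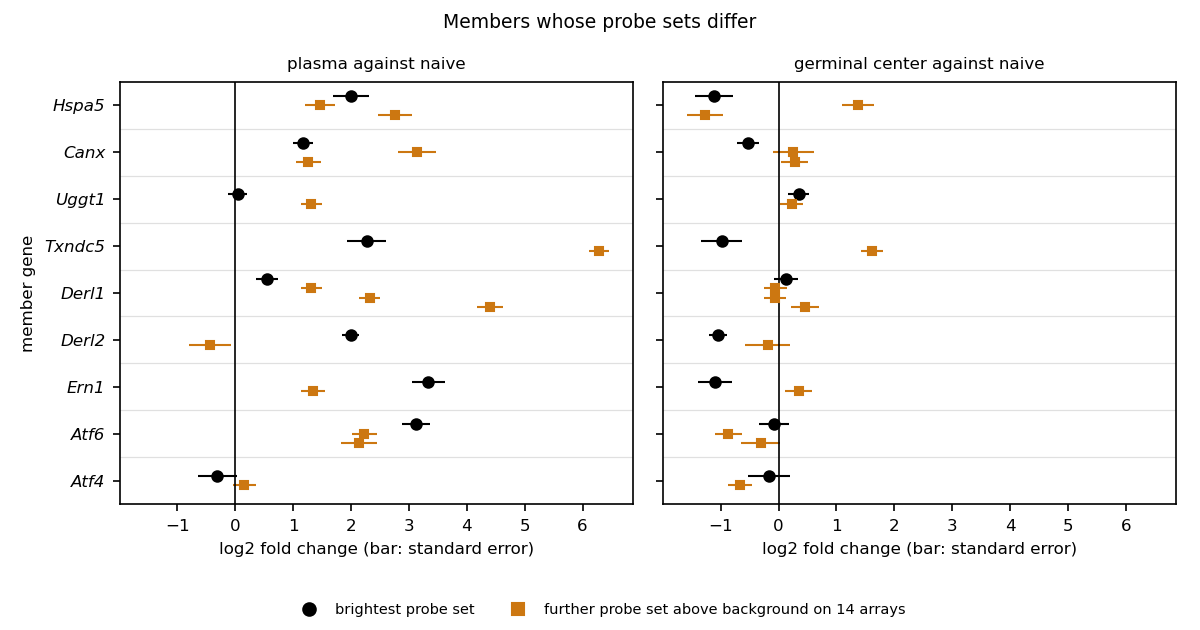
Log2 fold changes of single probe sets for 9 members, in plasma (left) and germinal center cells (right) against naive cells. Black circles are the brightest probe sets, on which all other values rest, orange squares further probe sets above background on all 14 arrays, and bars standard errors. Probe sets of Txndc5 and Derl1 differ in size in plasma cells, and those of Hspa5 and Txndc5 lie on opposite sides of 0 in germinal center cells.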

How the data were processed

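RNA of 14 sorted samples was measured on Affymetrix arrays. The deposited values are 1 intensity per probe set and array on a linear scale, made by the authors with RMA, per the submitters' processing notes; version, software and chip definition are not given in the sources used here. No value was at or below 0; values were turned to log2 without a pseudocount and not rescaled. Of 45101 probe sets, 64 were controls, 34945 carried 1 gene symbol, 932 several and 9160 none; those with several or none were left out. Each gene was represented by its brightest probe set.

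Linear models were fitted with limma 3.58.1 (lmFit, eBayes) in R 4.3.3 on 18193 genes; the 14 arrays entered 1 model with 4 subset means, which leaves 10 residual degrees of freedom. Tests were two-sided, adjusted by Benjamini-Hochberg over all genes in each of 6 contrasts, and called at an adjusted p under 0.05. Where no array of the lower subset was above background, the fold over background is given as "at least". Members, lists and named genes were chosen with earlier results of these data known. Per-array values are given for the PERK arm, the sensors, the 8 folding and 4 degradation members with the largest change in plasma against naive cells, members lower or not called there, and up to 6 called members in each of germinal center and memory against naive cells. Array values of Hspa5, and of Pdia6 in memory cells, were added after their values were seen.

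Alternatives covered scaling, dim genes, a floor of 16, probe sets, the variance model, the arrays in the fit, the replicate number, the actin ratio and a threshold of 0.01. Single further probe sets were an alternative added after the data were seen. Same-numbered arrays did not deviate together (correlation median -0.01 over 19 pairs, 6 above 0.1). Arrays with different numbers gave a median of -0.0045 over 54 pairs, with 13 above 0.1. The labels do not say that the numbers pair samples, so they were not treated as pairs. Such correlations cannot exclude a pairing. The fit was tested on simulated data. Promoter windows came from RefSeq. Python 3.11.15 with pandas 2.3.3 and, for the figures, matplotlib 3.10.9 was used besides R.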

Additional observations from a re-analysis of the deposited data

Results flagged for a closer look

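Of 82 groups of 4 arrays examined (each member in plasma and in memory cells), 3 held an array set apart from the other 3, with a gap to the nearest array, as a share of the whole range, above Dixon's critical value for 4 samples; chance flags about 1 group in 20. Dnajb11 read 2031 on plasma replicate 2 and 2591 to 2699.9 on the other plasma arrays. Ppp1r15a read 202 on plasma replicate 3 against 89.1 to 102 on the others. Ppp1r15a also read 315 on memory replicate 4 against 83.0 to 95.3 on the others. All of these arrays entered the values given above.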

How the results depend on the processing

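In plasma cells the counts of members called stayed within 1.5 times of those reported under every alternative run, and so did those of memory against germinal center cells but for the actin ratio as a covariate (9 members). Germinal center against naive cells gave 3 members with that covariate and 11 to 15 with 1 array left out. Memory against naive cells gave 2 members with a floor of 16, 2 with the mean over probe sets, 2 with the replicate number as a block, 1 at a threshold of 0.01, and 1 to 3 with 1 array left out. The block gave 14, 37, 35, 38 and 14 members in the other comparisons, and since same-numbered arrays did not deviate together it is not read as a pairing; with it Eif2ak3 passed in plasma against naive cells (-0.83).

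Role medians moved most with the mean over probe sets. In plasma against naive cells they were then 1.78 for glycoprotein folding, 2.04 for oxidoreductases, 1.92 for isomerases, 2.08 for degradation, 2.50 for sensors and 0.0018 for the PERK arm. Against germinal center cells they were 2.74 for chaperones, 2.74 for oxidoreductases, 2.28 for isomerases, 2.13 for degradation and 2.92 for sensors, and against memory cells 2.19 for glycoprotein folding, 2.49 for oxidoreductases, 2.13 for isomerases, 1.79 for degradation and 2.38 for sensors. In germinal center against naive cells they were 0.00038 for glycoprotein folding, 0.23 for oxidoreductases and -0.42 for sensors, and in memory against germinal center cells 0.53 for sensors and -0.0026 for glycoprotein folding. Without dim genes isomerases gave -0.18 (germinal center against naive), 2.30 (plasma against naive), -0.84 (memory against naive), 2.48, 3.14 (plasma against germinal center and memory) and -0.66 (memory against germinal center). Bright-gene centring gave 1.42 for glycoprotein folding in plasma against naive cells.

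With 1 array left out, the median of the sensors ran from -1.40 (without naive replicate 2) to -0.69 (without naive replicate 3) in germinal center against naive cells, and from 3.04 to 3.75, without the same arrays, in plasma against naive cells. Medians ran from 2.35 to 2.85 for degradation in plasma against germinal center cells and from 2.69 to 3.18 for chaperones in plasma against memory cells.

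Directions of single members turned mainly with the probe set. The mean over probe sets gave 0.21 for Uggt1 and 0.36 for Eif2ak3 in plasma against memory cells, and -0.22 for Txndc5 and 0.97 for Edem3 in memory against germinal center cells, where the actin ratio gave -0.15 for Txndc5. Single further probe sets, an alternative chosen after seeing the data, gave 1.38 for Hspa5, 1.61 for Txndc5 and 0.34 for Ern1 in germinal center against naive cells. They gave -0.43 for Derl2 in plasma against naive cells, 1.09 for Uggt1, -0.24 for Derl2 and 0.83 for Atf4 against germinal center cells, and 1.22 for Uggt1 and -0.23 for Derl2 against memory cells. In memory against germinal center cells they gave -1.52 for Hspa5, -0.11 and -0.64 for Dnajc3, -0.68 for Canx, -1.53 for Txndc5, -0.014 for Derl2, -0.18 for Ern1, and 0.78 and 0.96 for Atf6. The cause was not tested. Centring on bright genes raised the median of all genes by 0.18 (germinal center against naive), 0.24 (plasma against naive) and 0.18 (memory against naive), and centring on the median moved it by -0.14 and -0.16 in the first and second of these; members are read against it. A dim probe set near background understates a fold change, which limits Pdia5, Edem2, Fkbp11 and Creb3l2. Sdf2l1 and Pdia3 were above background on every array but close to it on some. Sdf2l1 read 16.9 on naive replicate 1 (background 14.2), and Pdia3 read 15.2 on germinal center replicate 2 (background 14.7). The same limit may hold for these genes.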

Other observations

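Genes other than the members whose promoter window holds an ER stress element were examined as a description, since the members were chosen for this pathway. Of 11 such measured genes with an ERSE, 2 fell in plasma against naive cells, Adcy3 and Pan2, and the other 9 did not pass the test, with a median log2 fold change of 0.16 over the 11. They included the oxidase gene Ero1b at -0.39 ± 0.18 (adjusted p = 0.124). Of 7 with an ERSE-II, 4 rose (Krtcap2, Lgalsl, Nucb1 and Rcl1) and 1, Rbm39, fell, where 14.2% of all genes rose and 16.1% fell. These genes were named after their values were seen. The pentamer CCACG, which ends both elements and overlaps them, was found in 33 of the 44 windows of members, and in 32.8% of all windows.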
